A study of Mus musculus with 19 samples.

Results

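The genes described here build and run the primary cilium: the intraflagellar transport (IFT) complexes and their motors, the BBSome, the transition zone and basal body, and cilium proteins that regulate Hedgehog signalling. They are a list of 49 gene symbols. Of these, 46 had a probe set that the platform annotation gives to that symbol alone, among 18193 such genes on the array, and Arl6, Arl13b and Rpgrip1l were not analysed here. The values are log2 signals, with 1 probe set per gene (the one with the highest mean over the arrays). Tests were run on 12148 genes that reached the median signal of the array on at least 3 arrays, and 45 of the 46 were among them. Tmem67, a transition zone membrane protein, stood below the array median on all 19 arrays, with group means of 1.57 to 1.88, and was not tested.

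The 19 Affymetrix Mouse430+2 arrays came from cerebellum of C57BL/6 mice and fell into 5 groups. NEP tumors (4 arrays) were tumor cells of Nestin-CreERT2/Ptch1C/C mice, and GNP tumors (4 arrays) were tumor cells of Math1-CreERT2/Ptch1C/C mice. NEPs (4 arrays) were Nestin-positive progenitors, GNPs (4 arrays) were Math1-positive granule neuron progenitors, and NSCs (3 arrays) were cells positive for CD133 and negative for lineage markers. Cells were neither cultured nor treated before RNA extraction. CreERT2 is a recombinase that needs tamoxifen to act, here under the Nestin or the Math1 promoter, and it deletes Ptch1 where that promoter is on. The labels used here give no age, sex, tamoxifen schedule or pooling, and nothing says that the arrays of a group came from separate animals, so the p-values measure only the spread between these arrays.

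The primary cilium is a single, non-motile antenna of the cell. Kinesin-2 carries IFT-B trains to the tip, dynein-2 and IFT-A bring them back, the BBSome moves membrane proteins out, and the transition zone at the base acts as a gate. In vertebrates the Hedgehog pathway runs through this antenna. Ptch1 keeps Smo out of it, and with Ptch1 lost, Smo enters and the Gli factors are activated there. Kif7, Tulp3 and Gpr161 hold the pathway down from within the cilium, and Evc with Evc2 helps Smo signal. Granule neuron progenitors divide in response to Sonic hedgehog, and mouse medulloblastomas driven by active Smo need the cilium.

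Many ciliary genes carry an X-box, the site of the RFX transcription factors, in the promoter. The promoters of the members (RefSeq, GRCm38.p6, 250 bases before to 50 after the start, 49 windows of 44 members) were searched on both strands for the half-sites GTTNCC and GGNAAC with 1 to 3 bases between them, a pattern that reads the same on either strand. A match without a mismatch stood in 5 of 49 member windows (10.2%), against 0.776% of 32851 windows of all genes. With up to 1 mismatch it stood in 13 windows (26.5%), against 4.83%. The 5 exact matches are shown with the match in capitals, because their genes recur in the results. All 5 were called lower in NEP tumors than in NEPs, as were 32.6% of all genes tested. A match is a description of letters and not a measured binding site.
Bbs7, chr3:36613467-36613540, minus strand: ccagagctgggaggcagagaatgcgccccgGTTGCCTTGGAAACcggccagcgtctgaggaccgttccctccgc
Ift57, chr16:49699204-49699276, plus strand: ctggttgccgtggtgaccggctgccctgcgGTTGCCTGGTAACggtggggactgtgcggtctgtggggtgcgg
Mks1, chr11:87853161-87853214, plus strand: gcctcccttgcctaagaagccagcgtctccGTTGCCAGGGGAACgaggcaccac
Tctn1, chr5:122264411-122264432, minus strand: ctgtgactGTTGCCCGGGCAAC
Tctn3, chr19:40612329-40612401, minus strand: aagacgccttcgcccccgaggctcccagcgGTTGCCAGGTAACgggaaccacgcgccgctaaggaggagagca

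The matches lay at 114 (Bbs7), 54 (Ift57), 18 (Mks1) and 134 (Tctn3) bases before the annotated start, and for Tctn1 42 bases after it. Members with 1 mismatch were Tctn2, B9d1, B9d2, Bbs1, Bbs4, Cc2d2a, Ift52 and Tmem216. Ift52 is shown for its place among the members that differed most between NEPs and GNPs, with a match next to the start.
Ift52, chr2:163017338-163017366, plus strand: atacagtcTTTACCGGGAAACgggccagc

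The motif GACCACCCA of the Gli factors, searched on both strands, stood in 0 of the 49 member windows and in 0.253% of all windows.

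The labels and the arrays were first checked against marker genes. The targeted gene Ptch1 had 11.46 ± 0.09 in NEP tumors and 11.21 ± 0.036 in GNP tumors, against 10.52 ± 0.29 in NEPs and 10.28 ± 0.09 in GNPs (log2, SD, n = 4 each). Where its probe set lies relative to the deleted part is not given in the sources used here, so it checks no deletion. Nes stood at 5.87 in NEPs and 3.49 in GNPs, and Atoh1 (Math1) at 3.95 in NEPs and 8.85 in GNPs. Atoh1 was higher in NEP tumors than in NEPs by 6.52 (SE 0.48) and was not called between the tumors. Nes was higher in GNP tumors than in GNPs by 1.77 (SE 0.27), and higher in NEP tumors than in GNP tumors by 0.94 (SE 0.27). In NSCs, Atoh1 stood at 8.93. Prom1, which encodes CD133, stood at 6.86 in NEP tumors, 5.85 in GNP tumors, 8.61 in NEPs, 7.24 in GNPs and 8.08 in NSCs, so it was higher in NEPs than in the group labelled by it (0.53, adjusted p = 0.00432). NSCs, labelled as lacking lineage markers, had array medians of 8.70 to 8.79 for markers of differentiating neurons. NEP arrays 1 and 2 differed from 3 and 4: across the genes tested the correlation was 0.94 between NEP arrays 1 and 3 and 0.995 between 1 and 2. The median of microglia and macrophage markers was 8.91 and 9.13 on NEP arrays 1 and 2 and 4.02 and 2.14 on arrays 3 and 4, against 1.85 to 2.13 in GNPs. By a number in their titles, the 11 tumor and NSC arrays form 1 series and the 8 arrays of NEPs and GNPs another, with mean poly-A spike-in signals of 6.83 in the tumor and NSC series and 8.94 in the other. Title series and group therefore cannot be told apart where tumors are compared with progenitors or progenitors with NSCs. In all of these bulk samples, fewer cells of a type and less RNA per cell cannot be told apart.

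The range of the 5 group means had a median of 0.78 over the 45 members tested, against 0.82 over all genes. The widest range among the members was 1.5 (Tctn2), which 77.2% of all genes tested stayed below, so the members were missing from the upper end of the ranges. The highest mean was in GNPs for 15 members, in NEPs and in NEP tumors for 9 each, in NSCs for 7 and in GNP tumors for 5. The lowest mean was in NEPs for 14 members, in NSCs for 13, in GNP tumors for 11, in NEP tumors for 6 and in GNPs for 1. The same shares over all genes were not counted, so these counts are a description only. The map of differences shows the members by role and comparison.

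**Figure D1:**
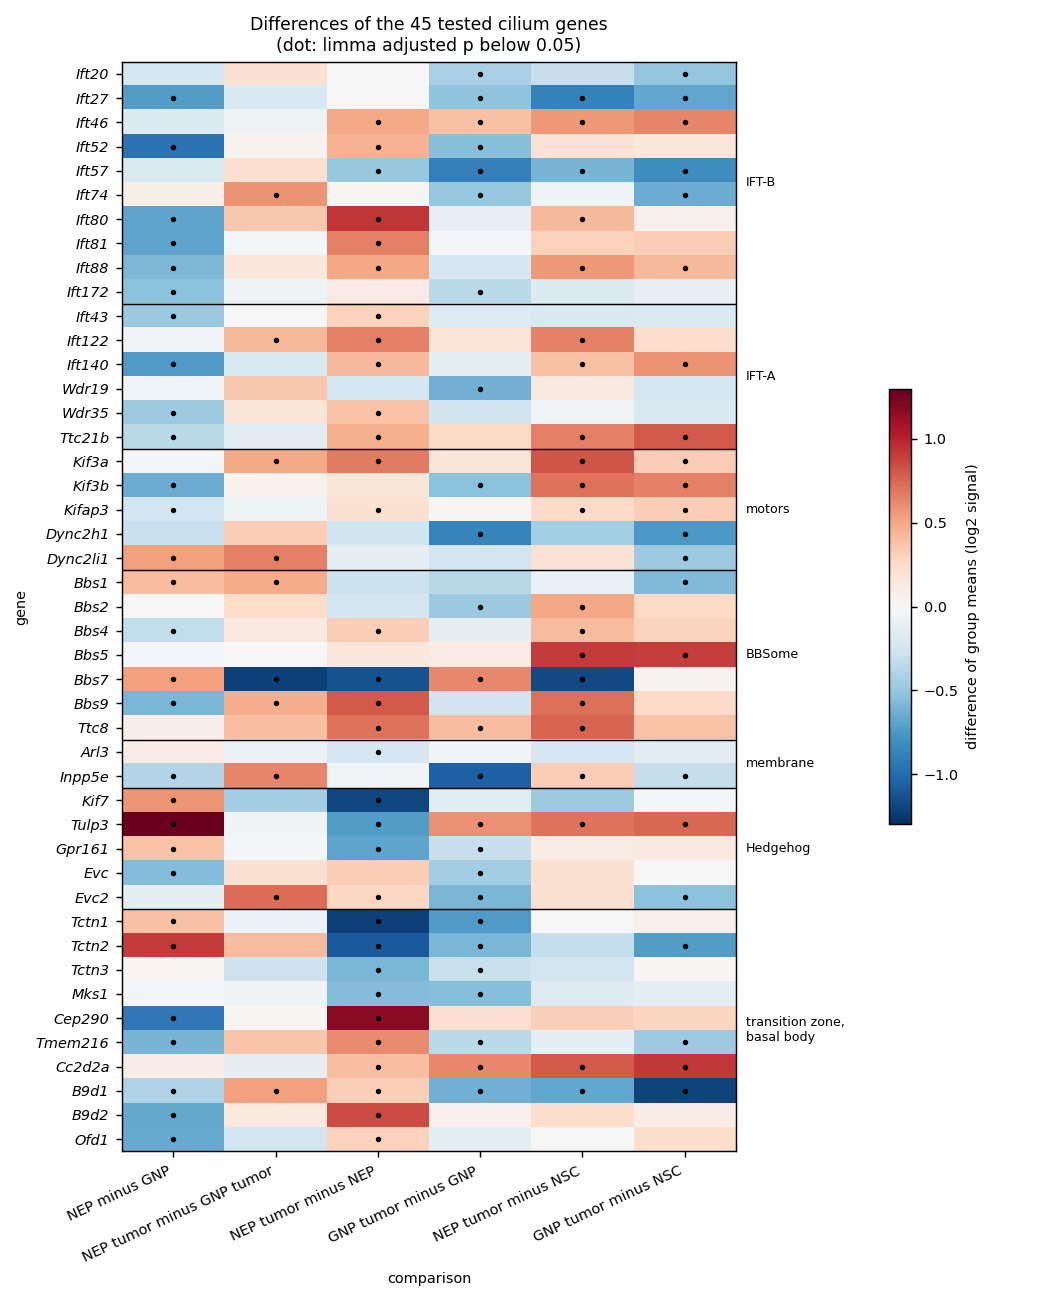
Differences of the members in log2 signal (colour, first group minus second) for 6 comparisons (columns), with members in rows grouped by role and a dot where limma called the difference. The IFT rows are mostly lower in NEPs than GNPs (10 of 16 called) and mostly higher in NEP tumors than NEPs (10 of 16), and Tulp3 has the largest value of the first column (1.27).

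Between the progenitors, most IFT genes were lower in NEPs than in GNPs, and 3 of the 5 Hedgehog regulators were higher. Among the IFT genes, 10 of 16 were called lower in NEPs and 0 higher (limma, adjusted p below 0.05), with a median difference of -0.47. Among the 5 Hedgehog regulators, Tulp3, Kif7 and Gpr161 were called higher and Evc lower. Over all 45 members 29 were called, 8 higher and 21 lower, with a median of -0.23. Of all genes tested, 69.5% were called, 29.6% higher and 39.9% lower, with a median of -0.11, so the members' share of 64.4% is near that background. Only Tulp3 was called at 2-fold or more (2.22% of members), against 23.6% of all genes.

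The IFT-B subunit Ift52, part of the complex core, had log2 signals of 5.11, 5.23, 5.08 and 5.33 in NEPs, against 6.13, 6.10, 6.10 and 6.24 in GNPs. All NEP arrays lay below all GNP arrays. The difference was -0.96 (SE 0.09, adjusted p = 1.13e-07). Ift27, the small GTPase of IFT-B, stood at 9.13, 9.20, 9.53 and 9.39 in NEPs and at 10.08, 9.84, 9.99 and 10.27 in GNPs, a difference of -0.73 (SE 0.10), also without overlap. Ift81, which binds tubulin cargo, stood at 7.0, 6.95, 7.24 and 7.53 in NEPs and at 7.80, 8.14, 7.92 and 7.64 in GNPs (-0.69, SE 0.13). Its highest NEP array came close to its lowest GNP array without reaching it. Ift80 had 5.68, 6.24, 6.20 and 6.51 in NEPs and 6.96, 6.84, 6.97 and 6.60 in GNPs (-0.69, SE 0.14), with NEP array 1 the lowest. Ift80 and Ift81 each have a second probe set, which gave -0.86 and -0.73. Ift88, a core subunit whose loss stops cilium assembly in the mouse, differed by -0.58 and Ift172 by -0.53. Ift20, Ift46, Ift57 and Ift74 were not called, with differences of -0.23 to 0.08.

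In the IFT-A complex, which drives return transport and entry of membrane receptors, Ift140 had 7.07, 6.84, 7.27 and 7.18 in NEPs, against 7.72, 7.94, 7.89 and 7.80 in GNPs. The groups did not overlap, and the difference was -0.74 (SE 0.11, adjusted p = 1.67e-05). Ift43 (-0.48), Wdr35 (-0.47) and Ttc21b (-0.35) were also called lower, while Ift122 and Wdr19 stood at -0.04 each. Of the motors, the kinesin-2 subunits Kif3b (-0.65) and Kifap3 (-0.25) were called lower and Kif3a was not called (-0.02). Dync2li1, the light intermediate chain of dynein-2, went the other way, with 7.56, 7.77, 7.64 and 7.95 in NEPs and 7.17, 7.43, 7.21 and 6.96 in GNPs (0.53, SE 0.12). Its heavy chain Dync2h1 was not called (-0.29).

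Tulp3, the adaptor that ferries receptors such as Gpr161 into the cilium on IFT-A, had the largest difference of any member here. Its log2 signals were 6.50, 6.23, 6.43 and 6.56 in NEPs, against 5.14, 5.12, 5.20 and 5.18 in GNPs. Every NEP array lay at least 1 unit above every GNP array, and the difference was 1.27 (SE 0.12, adjusted p = 7.62e-08). A second Tulp3 probe set was dim (mean 2.34) and not called (-0.17). Kif7, the kinesin that organises the cilium tip and restrains the Gli factors, had 6.15, 5.74, 5.85 and 6.52 in NEPs and 5.57, 5.26, 5.47 and 5.69 in GNPs (0.57, SE 0.19, adjusted p = 0.0145). Without NEP array 4, its highest, the difference was 0.42 (adjusted p = 0.0581) and no longer called. Gpr161, the receptor that keeps ciliary cAMP high, differed by 0.37 (SE 0.11), Evc by -0.56 (SE 0.16), and Evc2 was not called (-0.13).

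At the ciliary base, Cep290, a transition zone scaffold, had 3.69, 4.43, 4.54 and 4.74 in NEPs, against 5.46, 5.10, 5.41 and 5.14 in GNPs. No arrays overlapped and NEP array 1 was the lowest (-0.93, SE 0.21, adjusted p = 0.000751). Tctn2, a tectonic of the transition zone, was higher, with 3.82, 3.75, 4.68 and 4.76 in NEPs and 3.58, 3.36, 3.26 and 3.15 in GNPs (0.91, SE 0.20). NEP arrays 3 and 4 carried most of that difference. Tctn1 was called higher (0.38) and B9d1, B9d2, Ofd1 and Tmem216 lower (-0.67 to -0.40), while Tctn3, Mks1 and Cc2d2a were not called. In the BBSome, Bbs7 (0.53) and Bbs1 (0.40) were higher and Bbs9 (-0.59) and Bbs4 (-0.32) lower, and Bbs2, Bbs5 and Ttc8 were not called. Inpp5e, the phosphatase that sets the ciliary membrane's lipids, was lower (-0.38) on both of its probe sets, and Arl3, the GTPase that releases lipid-anchored cargo in the cilium, was not called (0.10).

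**Figure D2:**
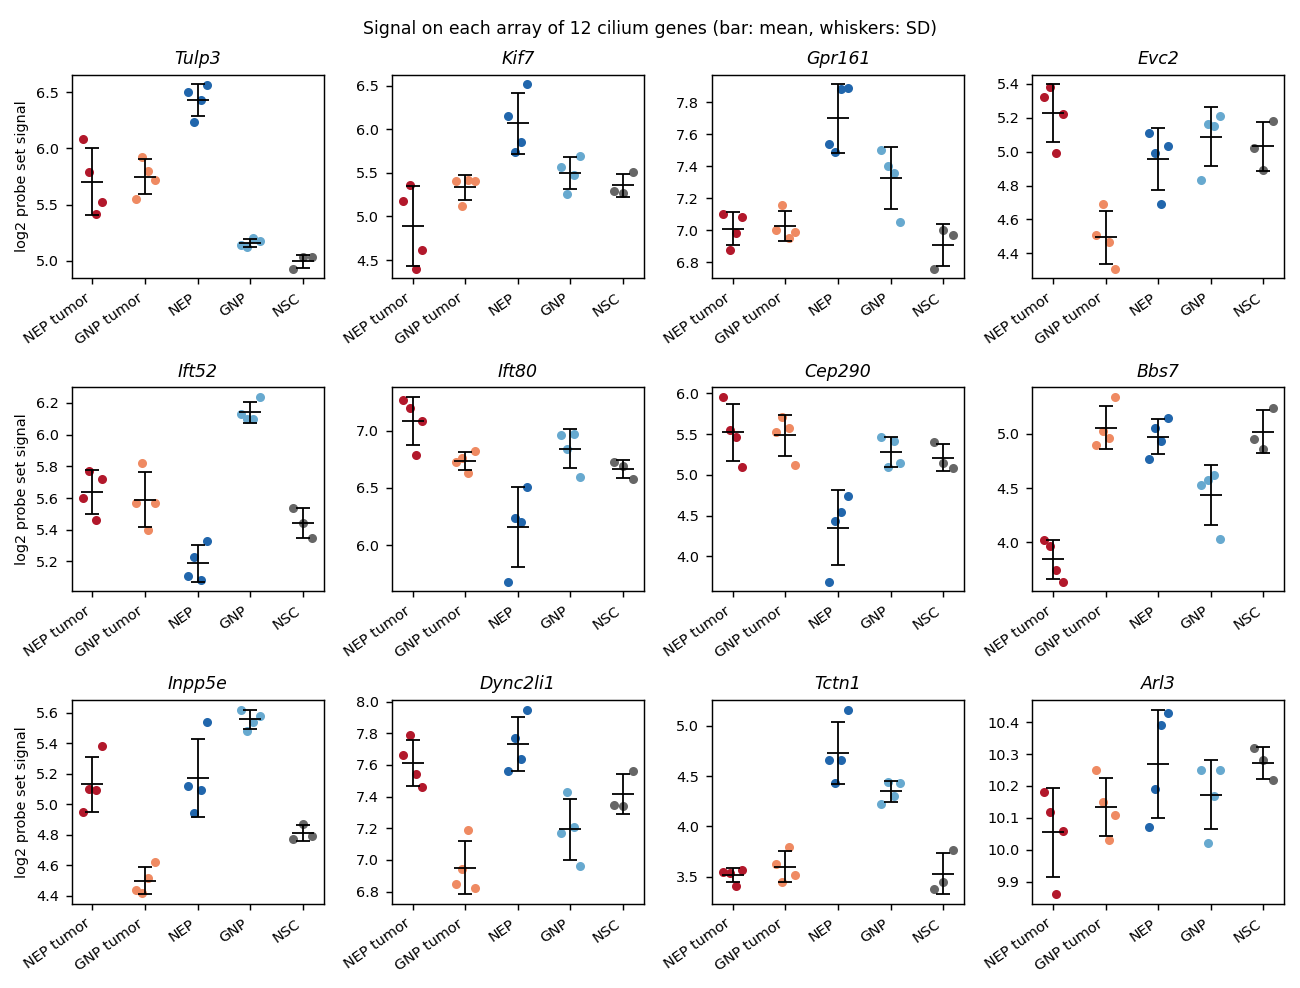
Log2 signal on each array (points) with the group mean ± SD (bars) for 12 members, with groups from left to right NEP tumor, GNP tumor, NEP, GNP (n = 4 each) and NSC (n = 3). Tulp3 stands highest in NEPs (6.43), Bbs7 lowest in NEP tumors (3.84), Ift52 highest in GNPs (6.14), and the group means of Arl3 lie within 10.06 to 10.28.

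The same NEP arrays had higher signals of glial and vascular markers and lower signals of neuron markers and cell cycle genes than the GNP arrays. The array medians of astrocyte and Bergmann glia markers were 10.34 to 10.65 in NEPs and 3.38 to 4.88 in GNPs, and those of pericyte, fibroblast and meningeal markers 5.33 to 9.30 in NEPs and 2.33 to 3.05 in GNPs. Markers of differentiating neurons had array medians of 6.42 to 8.51 in NEPs and 9.70 to 9.97 in GNPs, with 12 of 15 called lower. Cell cycle genes had array medians of 8.99 to 9.37 in NEPs and 9.85 to 9.93 in GNPs, and 18 of 19 were called lower in NEPs. The part of these in the cilium differences was not tested. Without NEP arrays 1 and 2, 10 of 16 IFT genes were lower and 1 higher (median -0.36). Without arrays 3 and 4, 11 were lower and 0 higher (-0.60). Over all members the counts were 10 higher and 16 lower without arrays 1 and 2, and 4 higher and 23 lower without arrays 3 and 4. Of the Hedgehog regulators, 3 were called higher without NEP arrays 1 and 2 and 1 without arrays 3 and 4.

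Most genes of the distal appendages and the start of ciliation, a list that includes a blocker of ciliation, were lower in NEPs as well. Of all genes tested, 39.9% were called lower and 29.6% higher. Of 13 distal appendage and early ciliation genes, 10 were called lower and 0 higher, led by Ccp110, a centriole cap protein that blocks ciliation (-1.80), the appendage proteins Sclt1 (-1.17) and Cep89 (-0.97), and Ehd1 (-0.88), which shapes the ciliary vesicle. Of 13 centriole duplication genes, 9 were lower and 0 higher, led by Pcnt (-1.01) and Cenpj (-0.99). Of 9 cilium disassembly genes, 5 were lower, among them the mitotic kinases Nek2 (-1.49), Aurka (-1.39) and Plk1 (-1.02), and Pifo was higher (1.59). Of 32 further ciliary genes, 4 were higher and 13 lower. Ttc26, another IFT-B subunit, differed by -1.02, Nphp4 by -0.95, and Nek8, a kinase of the proximal cilium, by 1.16. Among 16 genes of the Hedgehog pathway, 5 were higher, led by Hhip (8.07 in NEPs and 2.22 in GNPs, where it stayed below the array median), and 5 lower, led by Boc (-1.80).

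The RFX and ciliogenesis factors were split. Rfx4 stood at 8.76 ± 0.24 in NEPs and 2.47 ± 0.31 in GNPs (adjusted p = 4.24e-15). The GNP arrays lay around the array median, so no fold is given. Foxj1, the master factor of motile cilia, had 3.38 ± 0.83 in NEPs and 2.00 ± 0.33 in GNPs. Of 9 tested markers of motile cilia and ependymal cells, 5 were higher and 2 lower in NEPs, and their array medians of 2.78 to 3.76 in NEPs against 2.72 to 3.11 in GNPs lay near the array median. The axonemal genes Dnah5, Hydin and Spag6 stayed below the array median in all 5 groups.

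Between NEP tumors and GNP tumors 10 of 45 members were called, 9 higher and 1 lower in NEP tumors, with a median of 0.12 (all genes 0.05). Of all genes tested, 23.6% were called, 15.5% higher and 8.1% lower, and the members' share of 22.2% is near that background. The split depended on scaling: it was 7 higher and 4 lower after a second quantile normalization, and 6 and 2 with arrays centred on their median. It also depended on NEP tumor arrays, with 6 members called without arrays 1 and 2. Astrocyte and Bergmann glia markers had medians of 6.99, 6.96, 8.28 and 7.78 on NEP tumor arrays 1 to 4, against 7.65 to 7.81 in GNP tumors. Of these 12 markers 1 was called higher and 3 lower in NEP tumors. Microglia and macrophage medians were 3.84 to 5.30 in NEP tumors and 5.33 to 5.53 in GNP tumors, with 0 of 14 called. The part of these in the cilium differences was not tested. At 2-fold or more, Bbs7 alone was called (2.22%), against 2.53% of all genes.

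Bbs7, a propeller subunit of the BBSome core, had log2 signals of 4.02, 3.97, 3.75 and 3.64 in NEP tumors, against 4.90, 5.02, 4.96 and 5.34 in GNP tumors. The NEP tumor arrays lay below all 15 other arrays, the nearest of which was GNP array 4 at 4.03. The difference was -1.21 (SE 0.14, adjusted p = 2.02e-05). Evc2, part of the Smo-binding complex at the cilium base, had 5.32, 5.38, 4.99 and 5.22 in NEP tumors and 4.51, 4.69, 4.47 and 4.31 in GNP tumors (0.73, SE 0.12, adjusted p = 0.000306). The tumors did not overlap, and the GNP tumor mean of 4.50 was the lowest of the 5 groups.

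Dync2li1 stood at 7.66, 7.79, 7.54 and 7.46 in NEP tumors and at 6.85, 6.94, 7.19 and 6.82 in GNP tumors (0.66, SE 0.12), the same direction as between the progenitors. Inpp5e had 4.95, 5.10, 5.09 and 5.38 in NEP tumors and 4.44, 4.42, 4.52 and 4.62 in GNP tumors (0.63, SE 0.11), but its second probe set gave -0.01. For Inpp5e the probe sets thus disagreed on whether the tumors differ. Ift74, which with Ift81 holds tubulin, had 8.56, 8.33, 8.32 and 8.32 in NEP tumors and 7.93, 7.67, 7.88 and 7.74 in GNP tumors (0.58, SE 0.14). B9d1 had 7.58, 7.81, 7.34 and 7.39 in NEP tumors and 6.84, 7.16, 6.91 and 7.12 in GNP tumors (0.53, SE 0.13). Neither Ift74 (0.52, adjusted p = 0.0622) nor B9d1 (0.36, adjusted p = 0.103) was called without NEP tumor arrays 1 and 2.

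Kif3a, the motor subunit of kinesin-2, had 8.42, 8.30, 8.20 and 8.26 in NEP tumors and 7.86, 7.82, 7.80 and 7.74 in GNP tumors (0.49, SE 0.10). Its other 3 probe sets gave 0.06 to 0.18 and were not called, so the Kif3a difference rests on 1 of 4 probe sets. Bbs9 (0.47), Ift122 (0.43) and Bbs1 (0.48, adjusted p = 0.0488) were also called, and a second Ift122 probe set gave 1.47. Bbs1 lost its call under 13 of the alternatives tried. Tulp3 (-0.05) and Gpr161 (-0.02) were not called, with 95% intervals of -0.30 to 0.21 and -0.25 to 0.22, and Kif7 differed by -0.45 (interval -0.85 to -0.04, adjusted p = 0.107). Of the 32 further ciliary genes, 9 were higher in NEP tumors and 0 lower, led by Ttc30a1 (0.69), Tmem237 (0.58) and Ttc26 (0.55).

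The interaction asks whether the tumors differed from each other in another way than the progenitors did, as the NEP tumor minus GNP tumor difference less the NEP minus GNP difference, and a shift shared by all arrays of a title series cancels in it. It was called for 28 of 45 members, 23 positive and 5 negative (62.2%), with a median of 0.44. For all genes 61.9% were called, 36.7% positive and 25.2% negative, with a median of 0.15. Among the IFT genes 11 of 16 were positive and 0 negative. At 2-fold or more, 7 members were called (15.6%), against 26.8% of all genes.

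Bbs7 had the largest interaction, -1.74 (SE 0.20, adjusted p = 1.51e-06). Tulp3 (-1.31) and Kif7 (-1.02) followed in the negative direction, the Hedgehog brakes that were higher in NEPs than GNPs and not so between the tumors. In the positive direction stood Bbs9 (1.05), Ift80 (1.04), Inpp5e (1.01), Ift52 (1.00) and Cep290 (0.96). Cep290 was not called without NEP tumor arrays 1 and 2 (0.73, adjusted p = 0.0578). For Ift52, Ift80 and Cep290 the tumor difference was small (0.05, 0.35 and 0.03), so most of the interaction came from the NEP minus GNP difference (-0.96, -0.69 and -0.93).

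NEP tumors against NEPs, a comparison across the title series, showed most IFT genes higher and 3 Hedgehog brakes and 3 tectonics lower in the tumors. Of 45 members 32 were called, 22 higher and 10 lower in NEP tumors (71.1%), with a median of 0.20. Among all genes 68.9% were called, 36.2% higher and 32.6% lower, with a median of 0.05. Among the IFT genes 10 of 16 were higher and 1 (Ift57) lower, with a median of 0.39. Among the Hedgehog regulators, Kif7, Gpr161 and Tulp3 were lower and Evc2 was higher (0.27). At 2-fold or more, 5 members were called (11.1%), against 24.2% of all genes. Centring each array on its median put the all-gene median of this comparison at 0.18, that of GNP tumors against GNPs at 0.05 (-0.08 as deposited) and that of NEPs against NSCs at -0.15 (0.02 as deposited).

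Kif7 had 5.18, 5.36, 4.40 and 4.62 in NEP tumors, against 6.15, 5.74, 5.85 and 6.52 in NEPs. NEP tumor arrays 3 and 4 were the lowest of all 19 arrays, and the difference was -1.18 (SE 0.19, adjusted p = 4.31e-05). Tulp3 stood at 6.08, 5.79, 5.42 and 5.52 in NEP tumors and at 6.50, 6.23, 6.43 and 6.56 in NEPs (-0.73, SE 0.12), and Gpr161 at 7.10, 6.88, 6.98 and 7.08 in NEP tumors and 7.54, 7.49, 7.88 and 7.89 in NEPs (-0.69, SE 0.11). These 3 called genes did not overlap between the groups, and the share of all genes without overlap was not counted. Tctn1 had 3.55, 3.54, 3.41 and 3.57 in NEP tumors and 4.66, 4.43, 4.66 and 5.16 in NEPs (-1.21, SE 0.13, adjusted p = 3.55e-07). Tctn2 had 3.40, 3.18, 2.98 and 3.10 in NEP tumors and 3.82, 3.75, 4.68 and 4.76 in NEPs (-1.09, SE 0.20). All 3 tectonics were lower, with Tctn3 at -0.59, and so was Mks1, their partner in the transition zone (-0.56). NSCs, in the title series of the tumors, also had lower means than NEPs for all of these genes. Means in NSCs and NEPs were 3.53 and 4.73 (Tctn1), 3.48 and 4.25 (Tctn2), 4.53 and 4.87 (Tctn3) and 3.96 and 4.35 (Mks1). They were 5.36 and 6.07 (Kif7), 5.0 and 6.43 (Tulp3) and 6.91 and 7.7 (Gpr161). Tumor and title series therefore cannot be told apart here.

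Other transition zone and basal body genes moved the opposite way. Cep290 had 5.96, 5.55, 5.47 and 5.10 in NEP tumors, against 3.69, 4.43, 4.54 and 4.74 in NEPs (1.17, SE 0.21, adjusted p = 9.16e-05). B9d2 had 5.77, 5.94, 5.60 and 5.55 in NEP tumors and 4.71, 4.61, 5.32 and 4.80 in NEPs (0.85, SE 0.15). Tmem216 (0.61), Cc2d2a (0.39), B9d1 (0.31) and Ofd1 (0.30) were higher too. Ift80 stood at 7.27, 7.20, 6.79 and 7.09 in NEP tumors and at 5.68, 6.24, 6.20 and 6.51 in NEPs (0.93, SE 0.14). In the BBSome, Bbs9 had 4.78, 4.78, 4.45 and 4.61 in NEP tumors and 3.68, 3.43, 4.03 and 4.30 in NEPs (0.80, SE 0.16), while Bbs7, with 4.77, 5.05, 4.93 and 5.14 in NEPs, was lower in the tumors (-1.13, SE 0.14). The BBSome subunits therefore did not move as 1 block.

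These counts moved with the NEP arrays. Without NEP arrays 1 and 2 the members split into 15 higher and 14 lower, with 7 IFT genes higher and 2 lower, and without arrays 3 and 4 into 23 higher and 8 lower, with 11 IFT genes higher and 0 lower. Cell cycle genes were higher in NEP tumors (18 of 19, with array medians of 9.70 to 9.97 against 8.99 to 9.37 in NEPs), and astrocyte and Bergmann glia markers lower (array medians 6.96 to 8.28 in NEP tumors and 10.34 to 10.65 in NEPs). Of the neuron markers, 13 of 15 were higher in NEP tumors (array medians 9.31 to 9.99 in NEP tumors and 6.42 to 8.51 in NEPs). Their part in the cilium differences was not tested.

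GNP tumors against GNPs, again across the title series, showed mostly lower cilium genes. Of 45 members 25 were called, 5 higher and 20 lower (55.6%), with a median of -0.26, against 49.8% of all genes, 18.5% higher and 31.4% lower, with a median of -0.08. The split was 6 higher and 13 lower after a second quantile normalization, and 7 and 10 with arrays centred on their median, so the excess of lower calls depended in part on scaling. Of 16 IFT genes 7 were lower and 1 higher as deposited, and 4 lower and 2 higher with centred arrays. Markers of other cell types were higher in the same GNP tumors: 9 of 12 of astrocytes and Bergmann glia (array medians of 7.65 to 7.81 in GNP tumors and 3.38 to 4.88 in GNPs), 9 of 14 of microglia and macrophages (5.33 to 5.53 in GNP tumors and 1.85 to 2.13 in GNPs) and 7 of 15 of pericytes, fibroblasts and meninges (4.68 to 5.15 in GNP tumors and 2.33 to 3.05 in GNPs). Their part in the cilium differences was not tested. Only Inpp5e was called at 2-fold or more (2.22%), against 12.1% of all genes.

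Inpp5e had 4.44, 4.42, 4.52 and 4.62 in GNP tumors, against 5.62, 5.48, 5.54 and 5.58 in GNPs (-1.06, SE 0.11, adjusted p = 5.56e-07). Its second probe set gave -0.23, which was not called. Ift57 stood at 6.59, 6.61, 6.71 and 6.79 in GNP tumors and at 7.37, 7.64, 7.53 and 7.73 in GNPs (-0.89, SE 0.15). Dync2h1, the dynein-2 heavy chain, had 5.19, 5.22, 5.55 and 5.14 in GNP tumors and 6.25, 6.25, 6.18 and 5.88 in GNPs (-0.87, SE 0.18). Tctn1 had 3.63, 3.45, 3.80 and 3.52 in GNP tumors and 4.22, 4.44, 4.30 and 4.43 in GNPs (-0.74, SE 0.13). These 4 genes, named for the largest negative differences, did not overlap between the groups. Their means in NSCs, which lie in the title series of the tumors, were 4.81 (Inpp5e), 7.49 (Ift57), 6.03 (Dync2h1) and 3.53 (Tctn1). How many of all genes did not overlap was not counted.

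Wdr19, an IFT-A core subunit, had 3.87, 3.77, 3.43 and 4.01 in GNP tumors and 4.34, 4.61, 4.23 and 4.37 in GNPs (-0.62, SE 0.16). B9d1 stood at 6.84, 7.16, 6.91 and 7.12 in GNP tumors and at 7.51, 7.72, 7.68 and 7.57 in GNPs (-0.62, SE 0.13). Both genes, again named for the size of their difference, had all tumor arrays below all GNP arrays. Of the members called higher, Cc2d2a had 5.85, 5.54, 5.71 and 5.71 in GNP tumors and 5.04, 5.06, 5.05 and 5.17 in GNPs (0.62, SE 0.10). Bbs7 had 4.90, 5.02, 4.96 and 5.34 in GNP tumors and 4.53, 4.57, 4.62 and 4.03 in GNPs (0.62, SE 0.14). Tulp3, with 5.55, 5.92, 5.80 and 5.72 in GNP tumors, was higher by 0.59 (SE 0.12), but not called when all its probe sets were averaged (0.18, adjusted p = 0.0714). Ttc8 (0.40) and Ift46 (0.38) were also higher, and Ttc8 was not called without GNP array 2 (0.30) or GNP tumor array 3 (0.37).

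**Figure D3:**
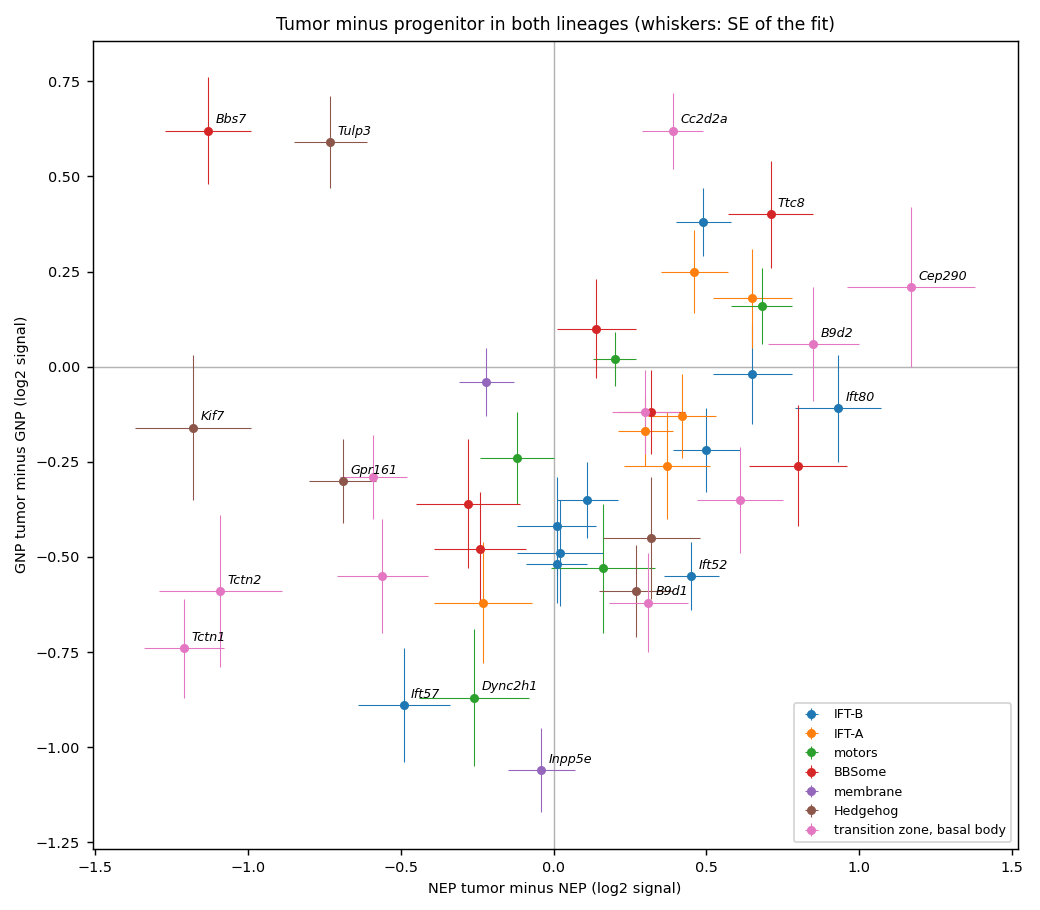
Difference of each member between NEP tumors and NEPs (x axis, log2) and between GNP tumors and GNPs (y axis, log2) with whiskers of 1 SE, coloured by role. Tctn1 lies low on both axes (-1.21 and -0.74), Bbs7 and Tulp3 are lower on x and higher on y, and Cep290 is far right at 1.17 and 0.21.

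Set side by side, the tumor comparisons, which share no arrays, gave 3 members higher in both (Ift46, Ttc8 and Cc2d2a) and 6 lower in both (Ift57, Gpr161, Tctn1, Tctn2, Tctn3 and Mks1). Another 4 were higher in NEP tumors against NEPs and lower in GNP tumors against GNPs (Ift52, Evc2, Tmem216 and B9d1). Bbs7 and Tulp3 were lower in NEP tumors and higher in GNP tumors. Dync2li1, Bbs1 and Bbs5 were called in neither. Higher in both were 6.67% of members and 9.20% of all genes, and lower in both 13.3% of members and 12.2% of all genes. Opposite calls were made for 8.89% and 4.44% of members, against 8.30% and 4.85% of all genes. These shares of members called in both comparisons are near the background. Shares called in 1 comparison alone were further from it. Higher in NEP tumors alone were 15 members (33.3%, against 18.7% of all genes), and lower in NEP tumors alone 4.44% against 15.5%. Lower in GNP tumors alone were 10 members (22.2%, against 10.8%), and higher in GNP tumors alone 0, against 4.43%. A shift between the title series would move both comparisons the same way, and its part in the 9 shared calls cannot be told apart from the tumors.

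Of the 5 members with an exact X-box match, all 5 were lower in NEP tumors than in NEPs (median -0.59), and 4 were lower and Bbs7 higher in GNP tumors than in GNPs (median -0.55). Of 28 tested members with a promoter window and no match, 13 were higher and 4 lower in NEP tumors, and 3 higher and 12 lower in GNP tumors. With up to 1 mismatch allowed, 13 members gave 6 higher and 6 lower in NEP tumors, and 2 higher and 8 lower in GNP tumors. These counts are a description of members grouped after their values were seen. Rfx4 stood at 2.67 ± 0.30 in NEP tumors, around the array median, against 8.76 ± 0.24 in NEPs, and was not called between GNP tumors and GNPs. Rfx2 was lower in both tumor comparisons (-0.91 in NEP tumors, -0.89 in GNP tumors), and Rfx1 was higher in NEP tumors than NEPs (0.82). Of 9 RFX and ciliogenesis factors tested, 1 was higher and 4 lower in NEP tumors, and 0 higher and 3 lower in GNP tumors. Their part in the member differences was not tested.

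Genes around the cilium were also set side by side between the tumors and their progenitors. Gli3, the Gli factor that is cut to a repressor at the cilium, stood at 2.85 ± 0.14 in NEP tumors and 3.11 ± 0.18 in GNP tumors, against 7.36 ± 0.34 in NEPs and 5.87 ± 0.27 in GNPs. Both tumor levels were close to the array median, so no fold is given. Gli1, a transcriptional target of the pathway, stood at 8.80 ± 0.21 in NEP tumors and 8.47 ± 0.18 in GNP tumors, against 7.06 ± 0.72 in NEPs and 8.04 ± 0.25 in GNPs. It was called higher in NEP tumors than in NEPs (1.74, SE 0.26, limma adjusted p = 1.75e-05) and not called between GNP tumors and GNPs. Of the further ciliary genes, 15 of 32 were higher and 8 lower in NEP tumors than NEPs, led by Ttc26 (1.23), Tmem107 (1.11) and Cluap1 (0.99), and 1 was higher and 12 lower in GNP tumors than GNPs, led by Unc119b (-0.93), Ift22 (-0.76) and Traf3ip1 (-0.73), a split of 6 higher and 10 lower with centred arrays. Distal appendage genes gave 7 higher and 2 lower of 13 in NEP tumors, with Ccp110 at 1.76 and Sclt1 at 1.41, and 0 higher and 5 lower in GNP tumors, with Cep164 at -0.95. Centriole duplication genes gave 9 higher and 0 lower of 13 in NEP tumors, with Cep57 at 1.78 and Cep135 at 1.68, and 2 higher and 1 lower in GNP tumors, where the higher genes were again Cep57 (0.71) and Cep135 (0.67).

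Against NSCs, which lie in the title series of the tumors, NEP tumors had 21 of 45 members called, 17 higher and 4 lower (46.7%), against 44.3% of all genes, 23.9% higher and 20.4% lower. The split was 14 and 8 after a second quantile normalization. The higher members were led by Bbs5 (0.91), Kif3a (0.82), Cc2d2a (0.80) and Ttc8 (0.76), and the lower ones were Bbs7 (-1.17), Ift27 (-0.88), B9d1 (-0.68) and Ift57 (-0.60, SE 0.17). Bbs5, a BBSome subunit, had 4.86, 4.77, 4.72 and 4.77 in NEP tumors, against 3.88, 3.81 and 3.91 in NSCs, with no overlap. GNP tumors had 22 members called against NSCs, 10 higher and 12 lower (48.9%), against 47.6% of all genes, 22.2% higher and 25.4% lower. Cc2d2a (0.92), Bbs5 (0.90), Ttc21b (0.80) and Tulp3 (0.75) led the higher members, and B9d1 (-1.20), Ift57 (-0.81), Dync2h1 (-0.75) and Tctn2 (-0.73) the lower ones. At 2-fold or more, Bbs7 was called in NEP tumors (2.22%, against 11.5% of all genes) and B9d1 in GNP tumors (2.22%, against 12.8%). Both comparisons share the NSC arrays. Of 13 endothelial markers 8 were lower in NEP tumors and 13 in GNP tumors than in NSCs (array medians of 2.75 to 3.77 in NEP tumors and 2.53 to 2.78 in GNP tumors, against 4.85 to 5.45 in NSCs), and of 15 pericyte, fibroblast and meningeal markers 9 were lower in each tumor. Their part was not tested.

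NEPs against NSCs gave 25 members called, 13 higher and 12 lower, against 58.4% of all genes, 30.9% higher and 27.6% lower, and the split turned to 9 higher and 13 lower after a second quantile normalization and to 7 and 13 with centred arrays. Tulp3 (1.43, SE 0.13), Tctn1 (1.20), Gpr161 (0.79) and Tctn2 (0.77) led the higher members, and B9d1 (-0.98), Ift27 (-0.89), Cep290 (-0.86) and Tmem216 (-0.73) the lower ones. Tctn2 was not called without NEP arrays 3 and 4 (0.31). Tctn3 was called higher by its brighter probe set (0.35) and lower by its dimmer one (-0.40). GNPs against NSCs gave 21 called, 19 higher and 2 lower, against 36.3% of all genes, 23.2% higher and 13.1% lower. Kif3b (1.20), Tctn1 (0.82), Bbs5 (0.80) and Inpp5e (0.75) led, and B9d1 (-0.59) and Bbs7 (-0.58) were lower. At 2-fold or more, Tulp3 and Tctn1 were called in NEPs against NSCs (4.44%, against 17.5% of all genes) and Kif3b in GNPs against NSCs (2.22%, against 7.23%). The GNP split was 14 higher and 2 lower after a second quantile normalization and 11 and 2 with centred arrays, and 14 to 18 members were called with each array left out in turn. In GNPs, 13 of 15 pericyte, fibroblast and meningeal, 12 of 13 endothelial and 11 of 12 astrocyte and Bergmann glia markers were lower than in NSCs. In NEPs, 9 of 12 astrocyte and Bergmann glia markers were higher than in NSCs, and 10 of 15 neuron markers and 19 of 19 cell cycle genes were lower. Their part was not tested. Both comparisons cross the title series.

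Some members had a small spread of group means. Arl3 had 10.18, 10.12, 9.86 and 10.06 in NEP tumors, 10.25, 10.15, 10.03 and 10.11 in GNP tumors, 10.07, 10.19, 10.39 and 10.43 in NEPs, 10.25, 10.02, 10.17 and 10.25 in GNPs, and 10.32, 10.28 and 10.22 in NSCs. Its group means spanned 0.22, less than those of all but 2.8% of genes tested, and it was called in 1 comparison (NEP tumors against NEPs, -0.22). Kifap3, the adaptor of kinesin-2, spanned 0.32, with array signals of 8.98 to 9.39. Bbs4, which links the BBSome to the centriolar satellites, spanned 0.41, with group means of 5.78 to 6.19. Kifap3 and Bbs4 were still called in several comparisons. Among these were NEPs against GNPs (-0.25 for Kifap3, -0.32 for Bbs4) and NEP tumors against NSCs (0.25 for Kifap3, 0.41 for Bbs4).

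**Figure D4:**
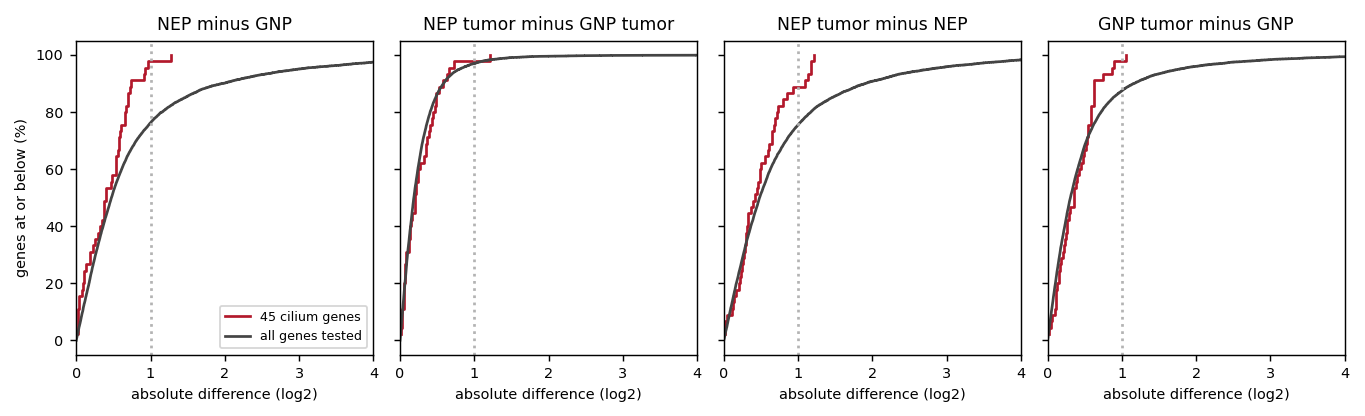
Cumulative share of genes (y axis) by absolute log2 difference (x axis, cut at 4) for the 45 members and for all 12148 genes tested, in 4 comparisons (panels), with a dotted line at 1 unit (2-fold). The curves lie close together between the tumors. Between NEPs and GNPs, 1 member was called at 2-fold or more (2.22%) against 23.6% of all genes. Where a curve ends depends on the number of genes in it, 45 or 12148.

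Of the 46 members, 27 had 1 probe set and 19 had several, 75 in all. Among called members with another tested probe set, the other one was called in the opposite direction in 0 of 11 cases between NEPs and GNPs, 0 of 3 between the tumors and 0 of 12 in the interaction. Over the other 6 comparisons, Tctn3 (above) was the single such case. These counts cover opposite calls, and not calls that 1 probe set gave and another did not, as for Inpp5e and Kif3a.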

How the data were processed

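The deposited values are log2 signals of 45101 probe sets on 19 arrays. The authors made them with RMA and Affymetrix Expression Console, whose names stand in the submitters' processing notes without a version or settings. Each array had a mean of 3.79 over all probe sets and a median of 2.44 to 2.57 without controls.

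Probe sets with several symbols (932), no symbol (9160) or control status (64) were left out. Of the 34945 kept, 34741 were matched by gene ID and 0 symbols changed. The fit used limma 3.58.1 in R 4.3.3 (lmFit and eBayes on all 19 arrays, 5 group means, two-sided tests, Benjamini-Hochberg adjustment over 12148 genes), was tested on simulated data, and gave every adjusted p in the text unless an alternative is named. The number of arrays limits the precision.

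The 4 called members with the largest difference in each direction are named in each comparison, the 8 largest with array values between progenitors, between tumors and between each tumor and its progenitor. So are the 8 largest interactions and the 3 members with the smallest spread, and others to account for each role. The members and lists were chosen with earlier results of these data known. Alternatives were the probe set rule, the filter, the scaling, a variance trend, the samples fitted, each array left out and the replicate number as a block. Leaving out pairs of NEP or NEP tumor arrays was added after seeing the data.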

Additional observations from a re-analysis of the deposited data

Results flagged for a closer look

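In 8 of 108 sets of 4 arrays (1 member in 1 group each), 1 array stood far from the other 3 by Dixon's criterion, and chance gives about 1 in 20. In NEP tumors these were Ift74 at 8.56 on array 1, Ift81 at 7.57 on array 1 and Wdr19 at 4.37 on array 3. In GNP tumors it was Kif7 at 5.12 on array 2. In GNPs they were Bbs4 at 5.87 on array 2, Bbs7 at 4.03 and Cc2d2a at 5.17 on array 4, and Evc2 at 4.83 on array 1. GNP array 4 and NEP tumor array 1 held 2 of these values each.

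The tumor difference and the progenitor difference were unequal by limma's interaction test for 8 named members. The interaction was -1.74 for Bbs7 (adjusted p = 1.51e-06), -1.31 for Tulp3 (5.23e-06), 1.05 for Bbs9 (8e-04), 1.04 for Ift80 (0.000329), -1.02 for Kif7 (0.00413), 1.01 for Inpp5e (3.36e-05), 1.00 for Ift52 (6.37e-06) and 0.96 for Cep290 (0.00931).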

How the results depend on the processing

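Of 74 results on single members, 64 kept their direction and call under each alternative run, 10 lost the call under at least 1, and 0 of 1361 values reversed. A filter at the 75th percentile, which tests fewer members, called 18 members in NEPs against GNPs (29 in the main result), 6 in NEP tumors against GNP tumors (10), 13 and 14 in NEP tumors and GNP tumors against NSCs (21 and 22), 21 in NEP tumors against NEPs (32), 14 in GNP tumors against GNPs (25), and 15 and 10 in NEPs and GNPs against NSCs (25 and 21). Between the tumors, the mean of all probe sets called 16 members, and 6 were called without NEP tumor arrays 1 and 2. With only the groups compared in the fit, NEPs against NSCs gave 13, and with arrays centred on their median GNPs against NSCs gave 13. The causes were not tested. With each array left out in turn, the counts ran over 27 to 29 (NEPs against GNPs), 7 to 13 (NEP tumors against GNP tumors), 23 to 29 (interaction), 17 to 22 and 19 to 22 (NEP tumors and GNP tumors against NSCs), 27 to 32 (NEP tumors against NEPs), 18 to 26 (GNP tumors against GNPs), and 18 to 24 and 14 to 18 (NEPs and GNPs against NSCs).

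Arrays of the same number showed little shared variation (correlations of -0.18 to 0.12). That does not exclude pairing, because differences within a group, as among the NEP arrays, can hide a shared part. In the titles, NEP and GNP arrays of the same replicate number also carry consecutive running numbers. The labels do not say whether these arrays were handled in pairs, so whether the numbers pair the arrays was not settled. With the replicate number as a block, 21 members were called in NEPs against GNPs, 12 between the tumors, 23 in the interaction, 21 in NEP tumors against NEPs and 26 in GNP tumors against GNPs.

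Calls lost elsewhere were Ift57 in NEP tumors against NSCs with probe sets averaged (-0.20) or without NEP tumor arrays 3 and 4 (-0.48), Kif7 in NEPs against GNPs without NEP arrays 3 and 4 (0.45), Kif3a between the tumors with the probe set of largest variance (0.08), and Tctn2 in NEPs against NSCs with only those groups fitted (0.77, adjusted p = 0.0578).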

Other observations

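Some Hedgehog pathway genes outside the cilium list differed between the tumors. Of 16 tested, 5 were called higher and 1 lower in NEP tumors than in GNP tumors (limma, adjusted p below 0.05), with a median of 0.20. Of all genes tested, 15.5% were called higher and 8.1% lower, with a median of 0.05. The split was 4 higher and 1 lower after a second quantile normalization and 3 and 2 with arrays centred on their median. The others called were Smo, the signal transducer (0.26), and Arrb2, a beta-arrestin (-0.24). The largest differences were those of Hhip, a secreted pathway inhibitor (1.28), Sufu, which holds the Gli factors in the cytoplasm (0.60), the co-receptor Gas1 (0.54) and Gli2, the main activator (0.40). Of 13 centriole duplication genes, Cep135 was called (0.73), and of 9 cilium disassembly genes, Nek2 (-0.40).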
